A study of Arabidopsis thaliana with 36 samples.

Results

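The histone genes of Arabidopsis thaliana were followed across leaf and root, 2 phosphate (Pi) levels and 3 genotypes. They were taken as the genes whose annotation text in the deposited table contains "histone H" or "histone superfamily" in any case, without texts that contain "methyl" or "acetyl". The rule found 48 of 27444 genes, and 4 further texts were left out by the 2 words. By locus, 44 of the 48 are core or linker histones, called here by symbol where the gene table gives one and otherwise by locus. The classes are H1 linker histone (1 gene), canonical H2A (4), H2A.X (1), H2A.W (3), H2A.Z (4), H2B (10), H3.1 (5), H3.3 (3), other H3 (5) and H4 (8). The other 4 genes carry histone words without being histones: LEC1, AT5G19490, AT5G50930 and AT3G07565. The rule misses 5 histone loci whose texts are worded otherwise, among them the H1 genes AT1G06760 and AT2G30620.

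Messenger RNA was measured by strand-specific sequencing of poly(A)-selected RNA, in 12 groups of 3 independent biological replicates. The wild type Col-0 (WT), a ppsr1 T-DNA knockout (KO) and AtPPSR1 overexpression plants (OE) stood in hydroponic solution with 200 µM Pi for 4 weeks, and then for 24 h at 200 or 0 µM Pi. Libraries were made from the root or from mature rosette leaves, so all groups share the growth history and differ in genotype, Pi supply over the last 24 h, and organ. KO and OE are each represented as a single genotype in the labels, and the number of plants behind a library is not stated. PPSR1 itself is not analysed here, as its name is paired with no locus in the table or the gene names, so the genotype labels were not checked by its level.

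Histones package DNA: an octamer of H2A, H2B, H3 and H4 forms the nucleosome core, and H1 binds the linker DNA. Canonical H2A, H2B, H3.1 and H4 are made mainly during S phase to coat newly copied DNA, whereas variants such as H3.3 and H2A.Z are also deposited outside replication. Plant histone messengers carry poly(A) tails, unlike most animal S-phase histone messengers, and are therefore captured in such libraries. In plants H2A.W marks heterochromatin, H2A.X takes part in DNA damage signalling, and the centromeric H3, encoded by HTR12, marks the kinetochore site.

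The organ labels matched their defining markers. The 5 mesophyll genes, among them the Rubisco subunit gene RBCS1A, summed to between 40830 and 88390 FPKM in leaf and between 322.5 and 1441 in root. The 5 root meristem genes summed to between 35.1 and 68.4 FPKM in root and to at most 1.18 in leaf. Read numbers recovered from the values came to 6680000 to 13180000 reads per leaf library and 2070000 to 11780000 per root library, with the fewest in OE root replicate 3 at 0 µM. This depth bounds counting error only. Chosen after their values were seen, 5 libraries stood apart from their organ: WT leaf replicate 2 at 200 µM, WT leaf replicate 1 at 0 µM, OE leaf replicate 1 at 0 µM, KO leaf replicate 1 at 200 µM and WT root replicate 2 at 200 µM. KO leaf replicate 1 held the highest mesophyll sum, 88390 FPKM, and the others had low levels of genes with long coding sequences. In the WT root library, genes with coding sequences under 500 bases lay 0.73 (log2) above the organ's libraries, and genes over 4000 bases deviated by -1.30. The median coding length of the 48 genes is 411 bases against 1047 for all genes, and results of WT root at 200 µM are given below with and without that library where they turn on it.

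The DNA before the genes was searched for sequence that the rule did not use. The octamer CGCGGATC, a motif known from plant histone promoters, was looked for on both strands in the 250 bases before each annotated gene start of RefSeq's TAIR10.1. It lay in 9 of the 48 windows (18.8%) and in 37 of 27442 windows of all genes in the table (0.135%). The 9 stretches follow, each with up to 16 bases on either side of the octamer nearest the gene start and cut at that start, on the gene's own strand, with the octamer or its reverse complement GATCCGCG in capitals.
AT1G07660 (H4, chr1:2368691-2368730, plus strand): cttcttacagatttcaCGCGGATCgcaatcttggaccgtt
AT5G59690 (H4, chr5:24051387-24051426, plus strand): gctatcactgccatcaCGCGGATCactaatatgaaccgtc
AT1G09200 (H3.1, chr1:2972335-2972369, minus strand): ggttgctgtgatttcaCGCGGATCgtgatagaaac
AT5G10400 (H3.1, chr5:3271054-3271093, minus strand): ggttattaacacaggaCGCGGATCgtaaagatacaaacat
AT5G65360 (H3.1, chr5:26120684-26120723, minus strand): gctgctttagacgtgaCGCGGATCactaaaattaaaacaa
HTA6 (H2A.W, chr5:24116313-24116352, minus strand): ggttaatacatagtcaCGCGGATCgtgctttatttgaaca
HTA10 (canonical H2A, chr1:18926785-18926810, plus strand): aacggtgataaacagcGATCCGCGta
HTA13 (canonical H2A, chr3:7229306-7229345, plus strand): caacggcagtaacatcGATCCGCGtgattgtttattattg
AT4G40040 (H3.3, chr4:18558946-18558978, minus strand): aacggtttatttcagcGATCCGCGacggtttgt
Both orientations occur, and the nearest octamer begins between 10 bases before the start in HTA10 and 126 in AT1G07660 and AT5G65360. AT1G09200 and HTA10 hold 2 octamers each. The whole window of AT1G09200 shows their spacing.
AT1G09200 (chr1:2972335-2972584, minus strand): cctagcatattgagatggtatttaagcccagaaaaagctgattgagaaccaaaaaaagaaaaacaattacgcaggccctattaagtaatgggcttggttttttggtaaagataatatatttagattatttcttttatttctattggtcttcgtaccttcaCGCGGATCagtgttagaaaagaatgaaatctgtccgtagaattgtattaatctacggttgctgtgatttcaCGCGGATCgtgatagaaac
None of the 10 H2B windows holds the octamer, and 7 of the 10 hold ACGTCA on either strand, which 12 of the 48 windows and 7.69% of all windows hold. CCGTCG lay in 10 of the 48 windows and 2.85% of all. TTTCCCGC, a form of the E2F site, lay in 0 of the 48 and in 0.619% of all. A match is a description of letters and is not a measured binding site.

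The genes differed widely in level. FPKM are fragments scaled by coding length and library size, so genes can be compared by level within a library. H3.3 led in both organs: AT4G40040 ranged from 950.4 to 1448 FPKM in leaf (median 1218) and from 1085 to 2051 in root (median 1405). The 3 H3.3 genes together made up 43.1% to 55.4% of the summed FPKM of the 44 histones in leaf and 28.4% to 39.9% in root, and these ranges do not overlap. H4 came second by class sum, with a median of 638 FPKM in leaf and 1858 in root. The highest gene of each other class was AT5G59690 for H4 (160 FPKM in leaf and 536 in root on average), AT1G09200 for H3.1 (56.9 and 203), HTA9 for H2A.Z (189 and 330), HTB4 for H2B (137 and 308) and HTA10 for canonical H2A (89.3 and 259). In H2A.W, HTA7 was highest in leaf (66.1) and HTA6 in root (122), and among the other H3 genes HTR12 led in both (1.67 and 12.6). H2AXA (162 and 222) and HIS1-3 (47.1 and 7.94) are the only genes of H2A.X and of H1 that the rule takes. The H2A.X gene HTA3 (AT1G54690), which the rule misses, averaged 28.9 FPKM in leaf and 109 in root.

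Several genes were silent or nearly so. HTA4, an H2A.Z gene, and LEC1, a subunit of the transcription factor NF-Y in embryos, were listed at 0 in all 36 libraries. MGH3, the H3 gene of the male gamete, was above 0 in a single root library at 0.36 FPKM. The H2B gene AT1G08170 was listed at 0 in all 18 root libraries and reached at most 0.93 FPKM in leaf. With the level filter, a mean of at least 1 FPKM over the libraries of a fit, 40 of the 48 genes entered the leaf tests, 43 the root tests and 41 the tests of root against leaf.

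**Figure D1:**
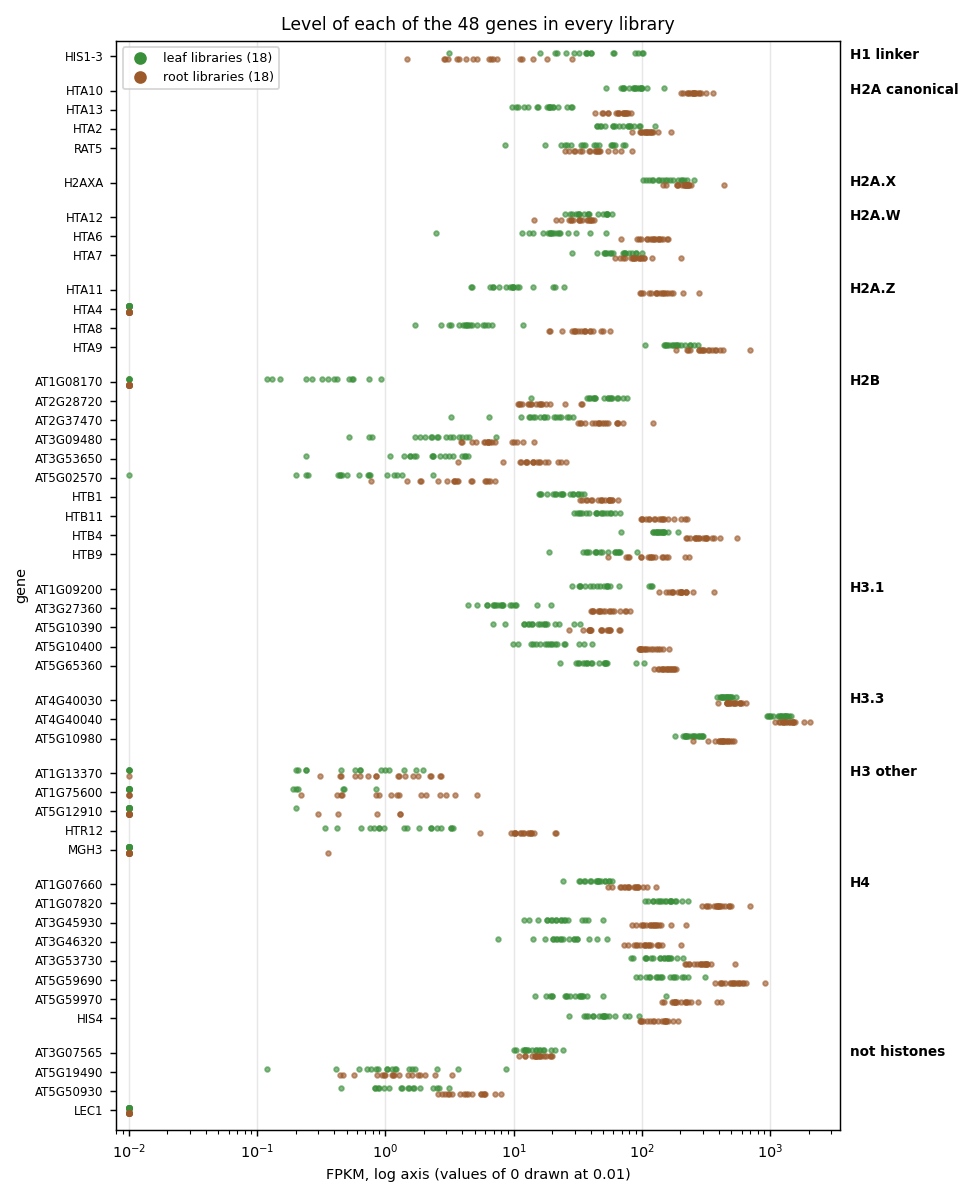
FPKM on a log axis of each of the 48 genes in each of the 18 leaf (green) and 18 root (brown) libraries, grouped by histone class, with values of 0 drawn at 0.01. AT4G40040 sits highest at a median of 1218 in leaf and 1405 in root, and the H4 and H3.1 rows lie further right in root, while HIS1-3 and AT2G28720 lie further left.

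Root was compared with leaf in each genotype and at each Pi level, 6 comparisons in one limma fit of log2(FPKM + 1) over 19327 genes, with Benjamini-Hochberg adjustment and a threshold of 0.05. Most histone genes were higher in root. In WT at 200 µM, 32 of the 41 tested genes rose and 1 fell, where 51.3% of all tested genes rose and 18.5% fell. The other pairs gave 32 up and 2 down in WT at 0 µM, 31 and 4 in KO at 200 µM, 31 and 2 in KO at 0 µM, 28 and 3 in OE at 200 µM, and 33 and 2 in OE at 0 µM, beside 56.1%, 56.1%, 53.1%, 55.7% and 57.1% of all genes up. The background down was 17.3%, 17.4%, 18.8%, 17.3% and 16.9%. The median log2 change of the tested genes lay between 1.22 and 1.52, and that of all genes between 0.67 and 0.81. A change of that size is therefore no change relative to the typical gene. Rescaled by the median of ratios, which brought the median of all genes to between 0.12 and 0.19, the genes up and down were 22 and 2 in WT at 200 µM, 20 and 5 in WT at 0 µM, 17 and 6 in KO at 200 µM, 22 and 5 in KO at 0 µM, 20 and 7 in OE at 200 µM, and 16 and 5 in OE at 0 µM. Under that scaling 32.8% to 35.9% of all genes rose and 26.1% to 27.8% fell. With a correction for coding length, 17 to 23 of the 41 rose and 5 to 10 fell, beside 30.2% to 32.3% and 30.2% to 32.0% of all genes. In all 6 comparisons 27 genes rose as deposited, and 12 of them also rose in all 6 under both of these scalings: the H4 genes AT1G07820, AT3G45930, AT3G46320 and AT5G59970, the H3.1 genes AT3G27360 and AT5G10400, HTR12, HTA10, HTA6, HTA8, HTA11 and the H2B gene AT3G53650. Of all tested genes, 41.1% rose in all 6 as deposited and 21.9% under the 3 scalings together. Of the 9 genes with the octamer, 8 rose in all 6 comparisons as deposited, the exception being the H3.3 gene AT4G40040, and 3 under all 3 scalings (AT5G10400, HTA10 and HTA6). Of the 32 tested genes without it, 19 rose in all 6 as deposited and 9 under all 3 scalings. In 19 of the 41 genes every root library exceeded every leaf library, as in 29.8% of all tested genes. In whole organs, more cells of a kind and more RNA per cell cannot be told apart.

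**Figure D2:**
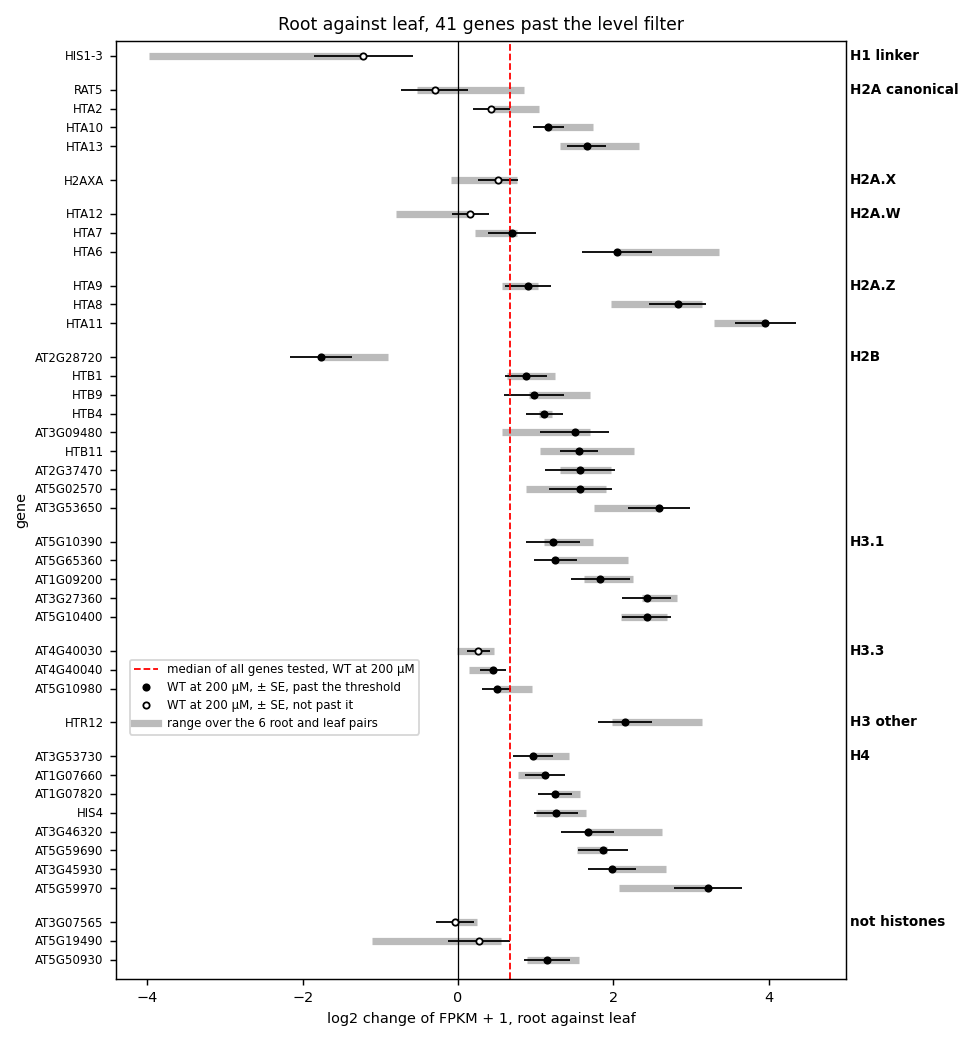
Log2 change of FPKM + 1 in root against leaf for the 41 tested genes, grouped by class, as points with SE for WT at 200 µM (filled where past the threshold) and grey bars for the range over all 6 pairs. The red dashed line is the median of all genes in WT at 200 µM, 0.67, and every H3.1 and H4 gene lies to its right while the 3 H3.3 genes lie to its left.

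H4 and H3.1, the classes made for replication, rose in full as deposited: 8 of 8 H4 genes and 5 of 5 H3.1 genes passed upward in each of the 6 comparisons. Under each of the other scalings 4 to 7 of the 8 H4 genes and 3 to 5 of the 5 H3.1 genes rose in a comparison. AT5G59970, an H4 gene, ranged from 14.8 to 156 FPKM in leaf (median 29.0) and from 143 to 414 in root (median 195). A single leaf library, KO replicate 1 at 200 µM, overlaps the root values. Its log2 change lay between 2.07 ± 0.44 (SE) in KO at 200 µM and 3.24 ± 0.44 in KO at 0 µM, with an adjusted p of at most 0.000113 (limma, Benjamini-Hochberg). AT3G27360, an H3.1 gene, ranged from 4.44 to 19.5 FPKM in leaf (median 7.94) and from 40.3 to 80.5 in root (median 50.7), and every root library exceeded every leaf library. Its log2 change lay between 2.36 ± 0.32 and 2.81 ± 0.32, with an adjusted p of at most 1.26e-07. The smallest changes in these classes were 0.77 to 1.12 in the H4 gene AT1G07660 and 1.102 to 1.74 in the H3.1 gene AT5G10390. AT1G07660 passed in no comparison under either of the other scalings, AT3G53730 in 1 of 6 under each, and HIS4 in 4 by the median of ratios and 3 with the length correction. H4 coding sequences are alike, with 78.8% to 98.1% identity over 28 pairs, and AT3G45930 and AT3G46320 share 68.4% of their 31-base words with another gene. Values of single H4 genes are therefore uncertain, as the treatment of reads that fit several genes is not stated.

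The H3.3 genes set the contrast within the H3 family. H3.3 replaces H3 outside replication, chiefly in transcribed genes. AT4G40030 ranged from 383.7 to 543 FPKM in leaf and from 393 to 650.0 in root, with overlapping ranges. Its log2 change was between -0.01 and 0.46 and that of AT4G40040 between 0.14 and 0.45, with 1 call up each in 6, and both changed sign under the 2 other scalings, to between -0.73 and -0.09, with 4 calls down each by the median of ratios and 5 each with the length correction. AT5G10980 rose in all 6 comparisons as deposited, by 0.50 to 0.95, and in none under either scaling, where its values straddled 0. The balance of H3.1 to H3.3 within a library does not depend on the scaling between libraries. H3.1 made up 4.41% to 15.2% of the summed FPKM of H3.1 and H3.3 in the 18 leaf libraries (median 6.54%) and 15.7% to 23.2% in the 18 root libraries (median 20%). Every root library lay above every leaf library, and the highest leaf library was OE replicate 2 at 0 µM.

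The H2A variants also changed their mix. H2A.Z, which sits at gene starts, is encoded mainly by HTA9 in leaf, at 76.8% to 96.6% of the class sum. HTA11 ranged from 4.66 to 24.9 FPKM in leaf (median 9.85) and from 97.7 to 278 in root (median 141), with no overlap. It had the largest rise of the 41 genes in each of the 6 comparisons, between 3.3 ± 0.39 in OE at 0 µM and 3.96 ± 0.39 in WT at 200 µM (adjusted p = 2.57e-10, limma). HTA8 rose by 1.97 to 3.14, from a leaf median of 4.37 to a root median of 34.6 FPKM. HTA9 had log2 changes of 0.57 to 1.03 and rose in 4 of 6 comparisons, and in none after either rescaling, where the change ran from -0.20 to 0.37. HTA11 thus held 1.77% to 18.2% of the H2A.Z sum in leaf and 21.6% to 44.6% in root.

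In H2A.W, HTA6 ranged from 2.48 to 52.4 FPKM in leaf (median 19.7) and from 68.6 to 159 in root (median 123), again with no overlap. HTA6 rose in all 6 comparisons, by 2.04 to 3.36. HTA7 rose in 3 of 6 as deposited and in 0 under the 2 other scalings, where its log2 change ran from -0.55 to 0.17 and it fell in 2 comparisons with the length correction. HTA12 did not follow them: it ranged from 24.99 to 58.6 FPKM in leaf and from 14.5 to 42.4 in root, and it fell in 2 of 6 comparisons as deposited, in 5 by the median of ratios and in 6 with the length correction. HTA6 held 3.07% to 33.3% of the H2A.W sum in leaf and 34.7% to 54.6% in root. HTA12 held 19.4% to 61.7% in leaf and 7.16% to 21.0% in root. Among canonical H2A genes, HTA10 and HTA13 rose in all 6 comparisons and HTA2 in 4, while RAT5, known from Agrobacterium transformation of roots, passed in none as deposited and fell in 1 by the median of ratios and in 2 with the length correction. HTA13 kept 5 of its 6 calls under each of the other scalings and HTA2 kept 0. H2AXA rose in 3 as deposited and in 0 under the other scalings, falling in 1 by the median of ratios and in 2 with the length correction.

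**Figure D3:**
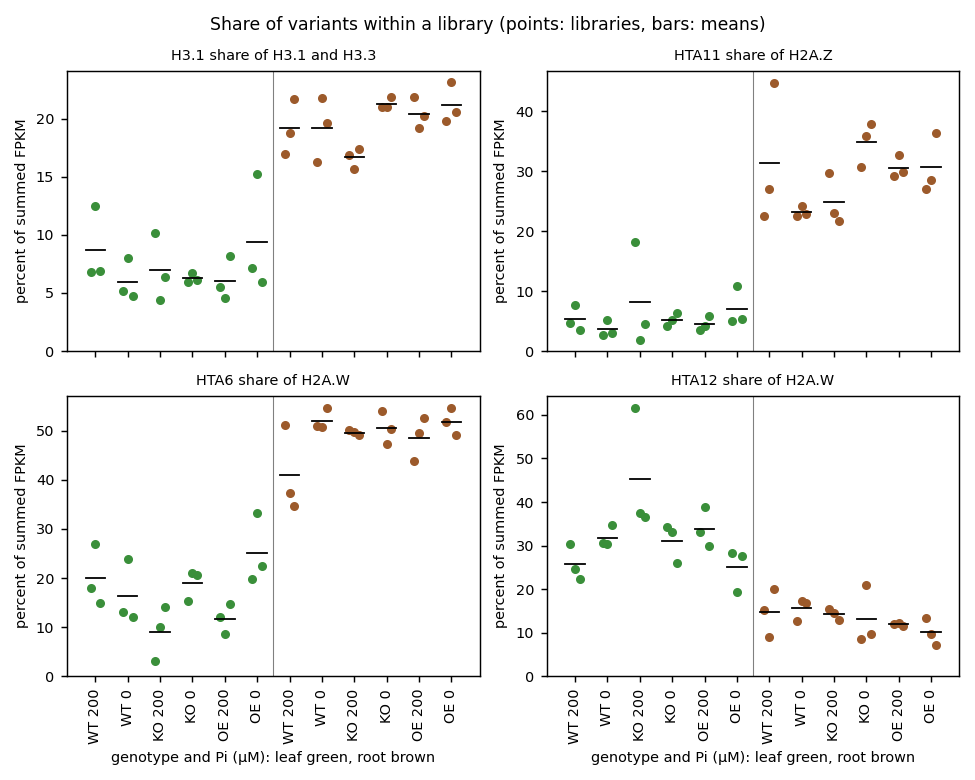
Percent of summed FPKM within each library for H3.1 in H3.1 plus H3.3, HTA11 in H2A.Z, HTA6 in H2A.W and HTA12 in H2A.W, as points for the 3 libraries of each group with a bar for their mean, leaf in green and root in brown. H3.1, HTA11 and HTA6 hold more of their class in every root library than in any leaf library, for HTA11 21.6% to 44.6% against 1.77% to 18.2%, and the HTA12 panel runs the other way with an overlap between 19.4% and 21.0%.

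H2B genes code for a core subunit with no variant classes in this list. Of the 9 tested, 7 or 8 rose in each comparison and AT2G28720 fell. HTB4, the most abundant, rose by 1.04 to 1.21 in all 6, from 69.2 to 191 FPKM in leaf to 222.5 to 555 in root. Under the median of ratios 2 to 5 of the 9 rose in a comparison and with the length correction 3 or 4. AT2G28720 ranged from 13.8 to 76.4 FPKM in leaf (median 52.7) and from 10.9 to 34.2 in root (median 15.4). The ranges overlap through KO leaf replicate 1 at 200 µM, at 13.8, and without it the lowest leaf library is above every root library. AT2G28720 fell in all 6 comparisons, with log2 changes from -1.79 to -0.90, and in all 6 under each of the other scalings. It lies 1536 bases from the H4 gene HIS4, which rose by 1.00 to 1.65. HIS1-3, the linker histone known to be induced by water deficit, also had less messenger in root. HIS1-3 ranged from 3.12 to 103 FPKM in leaf (median 37.1) and from 1.47 to 28.3 in root (median 5.83). It fell in 5 of 6 comparisons, with log2 changes from -3.98 ± 0.64 in OE at 200 µM to -1.22 ± 0.64 in WT at 200 µM (adjusted p = 0.0877), and in all 6 under each of the other scalings. The H1 genes outside the rule had higher means in root as deposited: AT1G06760 averaged 260 FPKM in leaf and 361 in root, and AT2G30620 154 and 209. Both means rose by less than the median of all genes on that scale, 0.67 to 0.81 (log2). They are therefore not raised relative to the typical gene, and no rescaled values are given for them.

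The genes of DNA replication, cell division and histone transport stood beside these changes. Of 14 replication genes 13 were tested, and 12 or 13 rose in root in each comparison, with medians from 2.06 to 2.65 and 0 falling. All 7 mitosis genes rose in each, with medians from 3.44 to 3.69, and of 13 histone chaperone genes, which carry histones to DNA, 11 to 13 rose. In leaf the summed FPKM of the replication genes was 26.9 to 116 and in root 175 to 306. The highest leaf value belongs to OE replicate 2 at 0 µM, which also has the highest H3.1 sum in leaf at 303 FPKM. Of the next 2 H3.1 sums, the first went with a replication sum above the leaf median and the second with one below it. WT leaf replicate 2 at 200 µM had 298 FPKM of H3.1 and 57.6 of the replication genes. KO leaf replicate 1 at 200 µM had 217 and 39.3, where the leaf median of the replication sum was 41.7. The part of the replication, mitosis and chaperone genes in the histone result was not tested. Of the 4 genes that are not histones, AT5G50930 rose in all 6 comparisons as deposited and in 2 and 1 under the other scalings, AT5G19490 fell in 1, and AT3G07565 passed in none as deposited.

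Each genotype at 0 µM was then set against itself at 200 µM, to see which histone messengers moved within 24 h of Pi removal. In leaf a single histone gene passed: HTA12 fell in KO and in OE, and 0 of 40 genes passed in WT. The background of called genes in leaf was 0.00606% in WT, 1.1% in KO and 0.801% in OE, and the share called down was 0.139% in KO and 0.115% in OE. HTA12 stood at 49.9, 52.6 and 58.6 FPKM in KO at 200 µM and at 38.2, 32.3 and 24.99 at 0 µM. In OE it stood at 53.9, 53.2 and 54.0 at 200 µM and at 27.5, 30.5 and 28.4 at 0 µM. In WT it stood at 31.6, 35.7 and 32.6 at 200 µM and at 45.4, 39.0 and 37.8 at 0 µM. The libraries of the 2 Pi levels do not overlap in any genotype, lower without Pi in both lines and higher in WT. Such separation was seen in 10.0% of all genes in WT, 22.5% in KO and 17.7% in OE. The log2 change was -0.75 ± 0.17 (SE, adjusted p = 0.0345) in KO, -0.88 ± 0.17 (adjusted p = 0.0169) in OE and 0.28 ± 0.17 (adjusted p = 0.795) in WT, from limma over 16489 genes. The response of OE differed from that of WT by -1.16 ± 0.24 (adjusted p = 0.0446), and that of KO by -1.03 ± 0.24 (adjusted p = 0.0962), with 0.352% of all genes called in the first, 0.0788% of them down, and 0.127% in the second. These contrasts share the WT libraries. At 200 µM HTA12 was higher than in WT by 0.67 ± 0.17 in KO (adjusted p = 0.0727) and by 0.68 ± 0.17 in OE (adjusted p = 0.0991), and neither passed.

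HTA12 kept its direction with any single library left out and lost calls. The OE response missed the threshold without any 1 of its 6 libraries (adjusted p from 0.0534 to 0.0994), the difference between OE and WT without any 1 of 12 (0.0501 to 0.14), and the KO response without 4 of its 6 (replicates 2 and 3 at each Pi level, 0.062 to 0.148). Between 116 and 379 reads per leaf library lie behind the gene. HTA12 overlaps AT5G02570, an H2B gene on the opposite strand, by 562 bases, and the sources used here do not give the strand setting of the counting. AT5G02570 reached at most 2.37 FPKM in leaf.

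The other histone genes of WT leaf leaned down together. Of the 40 tested genes 36 had a log2 change below 0 at 0 µM, with a median of -0.50, where all genes had a median of -0.01 and 48.5% above 0. In KO and OE the medians were -0.15 and -0.05, beside 0.15 and 0.01 for all genes. In WT leaf 5 of the 40 had an unadjusted p under 0.05, as had 6.22% of all genes, and the smallest adjusted p was 0.743, of the H4 gene AT1G07820. The median moved to -0.29 without WT leaf replicate 2 at 200 µM and to -0.29 without WT leaf replicate 3 at 0 µM. It was -0.26 with 30 of 40 below 0 after the length correction. Genes under 500 bases lay 0.40 above the organ's libraries in WT leaf replicate 2 at 200 µM. At 0 µM they lay 0.22 and 0.28 below in WT leaf replicates 2 and 3, and 0.22 above in replicate 1. HIS1-3 in OE leaf stood at 101, 103 and 93.6 FPKM at 200 µM and at 36.5, 29.7 and 21.1 at 0 µM, with no overlap and a log2 change of -1.76 ± 0.74 that missed the threshold (adjusted p = 0.48).

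**Figure D4:**
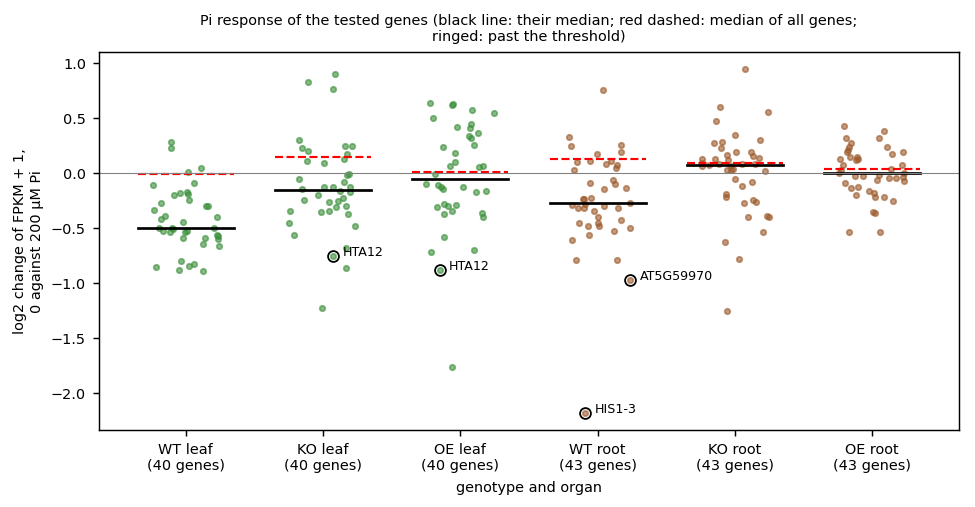
Log2 change of FPKM + 1 at 0 against 200 µM Pi for the tested genes in each genotype of leaf (green, 40 genes) and root (brown, 43 genes), with a black line at their median, a red dashed line at the median of all genes and rings on the genes past the threshold. The black line is lowest in WT leaf at -0.50 and next in WT root at -0.27, and the ringed genes are HTA12 in KO and OE leaf and HIS1-3 and AT5G59970 in WT root.

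In root 2 genes fell in WT and 0 passed in KO or OE. The background of called genes was 1.96% in WT, 0.85% of genes being called down, 3.53% in KO and 0.235% in OE. At an unadjusted p under 0.05, 8 of the 43 genes passed in WT, 2 in KO and 0 in OE, beside 20.1%, 19.7% and 5.93% of all genes, so the share in WT, 18.6%, was near the background. HIS1-3 stood at 11.2, 28.3 and 18.1 FPKM in WT root at 200 µM and at 5.23, 1.47 and 3.74 at 0 µM, with no overlap, as in 19.0% of all genes. It fell by 2.18 ± 0.42 on the log2 scale (adjusted p = 0.0137, limma), on 4 to 168 reads per root library. In KO root it stood at 14.3, 11.6 and 4.25 at 200 µM and at 2.94, 3.65 and 3.08 at 0 µM, also with no overlap, as in 26.2% of all genes, at a log2 change of -1.25 ± 0.42 (adjusted p = 0.106). In OE root it stood at 2.85, 6.88 and 7.41 FPKM at 200 µM and at 4.85, 6.42 and 6.70 at 0 µM. HIS1-3 did not pass in OE against WT root at 200 µM. The response of OE differed from that of WT by 2.31 ± 0.59, which did not pass (adjusted p = 0.916). The H1 genes AT1G06760 and AT2G30620 changed by 0.01 ± 0.15 and -0.01 ± 0.27 in WT root and did not pass.

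AT5G59970, an H4 gene, stood at 219, 414 and 389 FPKM in WT root at 200 µM and at 181, 181 and 143 at 0 µM. It fell by 0.97 ± 0.23 on the log2 scale (adjusted p = 0.0396, limma), with every library at 0 µM below every library at 200 µM. In KO and OE root its log2 changes were 0.30 and -0.09. AT5G59970 shares 37.9% of its 31-base words with another gene. Both calls in WT root rest on few libraries. Without WT root replicate 2 at 200 µM, the library with raised short genes, the log2 change was -1.87 in HIS1-3 (adjusted p = 0.0505) and -0.80 in AT5G59970 (adjusted p = 0.113), and the median of the 43 genes went from -0.27 to -0.02, where all genes had 0.13 and 0.11. By the median of ratios that median was -0.38, beside 0.00 for all genes. HIS1-3 also missed the threshold without WT replicate 3 at 200 µM (adjusted p = 0.0543) and without replicate 2 or 3 at 0 µM (0.0935 and 0.0655), and AT5G59970 without any WT library but replicate 1 at 200 µM (0.0524 to 0.181). Without that replicate 1, 5 of the 43 genes fell, as did 2.91% of all genes. That fit kept replicate 2 at 200 µM, the library with raised short genes.

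**Figure D5:**
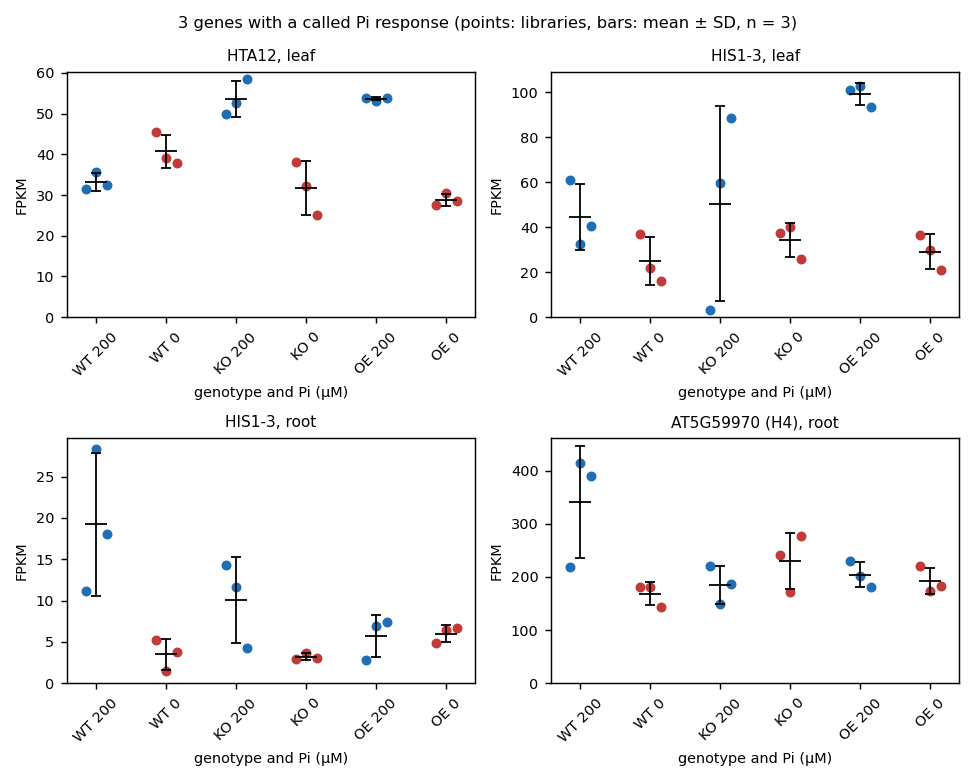
FPKM per library, with mean ± SD (n = 3), of HTA12 in leaf, HIS1-3 in leaf and root and AT5G59970 in root, by genotype at 200 µM (blue) and 0 µM (red) Pi. In HTA12 the lines stand at 49.9 to 58.6 at 200 µM and 24.99 to 38.2 at 0 µM against 31.6 to 35.7 and 37.8 to 45.4 in WT, and in both root panels WT at 200 µM holds the highest library.

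KO and OE were compared with WT at each Pi level in each organ, which asks what the genotype does to histone messengers. 0 of the 40 genes in leaf and 0 of the 43 in root passed in any of the 8 comparisons (limma, adjusted p), nor in the 4 of OE against KO. In leaf, 0.873% of all genes passed in KO and 0.382% in OE against WT at 200 µM, and 0.0364% and 0.0303% at 0 µM. In root the shares were 0.0313% in KO and 0.0417% in OE at 200 µM, and 0.0522% and 0.0678% at 0 µM, and OE against KO gave 0.00606% at each Pi level in leaf and 0.00522% at each in root. At an unadjusted p under 0.05, 8 of 40 genes differed between KO and WT leaf at 200 µM, 7 of them lower in KO and HTA12 higher, and between 1 and 6 in the other 7. Of all genes 13.7% did so in the first and 2.6% to 13.1% in the others. The H4 genes AT3G46320 (-1.28, adjusted p = 0.127) and AT1G07820 (-0.63, adjusted p = 0.17) and HTR12 (-1.25, adjusted p = 0.154) were among the 7 and are named after their values were seen. This comparison holds KO leaf replicate 1 and WT leaf replicate 2, both among the 5 libraries that stood apart. Genes under 500 bases deviated by -0.33 in the first and by 0.40 in the second. The counts of 0 in root at 200 µM did not hold when WT replicate 1 was left out. Without that library 4 genes were lower in KO and 2 lower in OE than in WT, while the share of all genes called lower was 1.89% and 0.631%. In replicate 1, genes under 500 bases deviated by only 0.01 (log2) and genes over 4000 bases by 0.00. WT was then left with replicate 2, at 0.73 and -1.30, and replicate 3, at 0.05 and -0.58. The part of coding length in these calls was not tested. In simulated libraries of this size, the Pi comparison of WT leaf found 30% of genes set to differ by 2-fold and 90% of those set to 4-fold, and that of WT root 46% and 94%, so moderate changes of single histone genes can be missed. The share of H3.1 in KO root was 15.7% to 17.4% at 200 µM and 21.0% to 21.9% at 0 µM, with no overlap, and in WT root it was 17% to 21.7% and 16.3% to 21.8%. In OE root it was 19.2% to 21.9% and 19.8% to 23.2%. HTA11 held 21.6% to 29.7% of H2A.Z in KO root at 200 µM and 30.6% to 37.9% at 0 µM, 22.5% to 44.6% and 22.5% to 24.2% in WT root, and 29.1% to 32.6% and 27% to 36.4% in OE root. In root KO alone had no overlap in these shares, and 26.2% of all single genes had none in KO root. Separation of a share by Pi level was not particular to KO. AT4G40040 held 60% to 72.2% of H3.3 in WT root at 200 µM and 55.7% to 57.7% at 0 µM. HTA6 held 8.5% to 14.7% of H2A.W in OE leaf at 200 µM and 19.8% to 33.3% at 0 µM. No share was tested, as members were summed. All 13 tested replication genes had log2 changes above 0 in the Pi response of KO root, with a median of 0.53, as had 12 of 13 in WT root and 12 of 13 in OE root, with medians of 0.30 and 0.14. 0 of them passed in any of the 3. Of all tested genes 58.6% had a change above 0 in KO root, 63% in WT root and 56.6% in OE root. The medians of all genes were 0.09, 0.13 and 0.04.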

How the data were processed

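Poly(A) RNA of 36 libraries was sequenced with strand-specific kits, per the labels' protocols. The deposited table gives FPKM per gene, which the authors had already scaled for coding length and depth. Trimmomatic, HISAT2 2.2.1, the TAIR10 genome and DESeq2 are named in the submitters' processing notes, and the sources used here do not name the counting tool or its strand setting. Low values were whole multiples of 1 read in 99.9% to 100% of cases, which gave each library's depth. FPKM were tested as log2(FPKM + 1) with limma 3.58.1 (trend, R 4.3.3) on genes averaging 1 FPKM or more, per organ for Pi and genotype and over all 36 libraries for root against leaf. Benjamini-Hochberg adjustment ran over all genes of a comparison, with a threshold of 0.05. Fold changes on this scale understate those of low genes. Tables were handled in Python 3.11.15 with pandas 2.3.3, and the fits were tested on simulated data. Coordinates and promoters are RefSeq's for TAIR10.1, matched by locus for 48 of 48 genes, since the table holds none. Genes past the threshold (at most 12 a comparison), the highest gene of each class and genes at 0 throughout were named. The genes and lists were chosen with earlier results of these data known. The labels call the replicates independent biological replicates.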

Additional observations from a re-analysis of the deposited data

Results flagged for a closer look

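HTA12 had log2 changes of opposite sign between Pi levels in leaf: 0.28 in WT against -0.75 in KO and -0.88 in OE. The change in WT did not pass the threshold. Libraries of the 2 Pi levels lay apart in each genotype. Such separation was seen in 10% of all genes in WT, 22.5% in KO and 17.7% in OE. The difference between OE and WT was tested and came to -1.16 (adjusted p = 0.0446, limma), and it missed the threshold without any 1 of the 12 libraries, while that between KO and WT missed it in the full fit (adjusted p = 0.0962).

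AT3G07565, annotated with H2A deubiquitination and not a histone, moved apart in root between KO, with a log2 change of -0.38, and OE, with 0.19. In KO root it stood at 17.8, 15.1 and 17.4 FPKM at 200 µM and at 14.7, 11.01 and 12.3 at 0 µM, and in OE root at 14.9, 14.0 and 14.9 and then at 16.1, 15.5 and 19.1. This difference between KO and OE was not tested.

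AT5G50930 had a log2 change of -0.79 in WT root and 0.48 in KO root. It stood at 5.61, 4.43 and 7.93 FPKM in WT at 200 µM and at 3.3, 3.06 and 2.59 at 0 µM, and in KO at 2.78, 4.75 and 4.28 and then at 5.58, 5.88 and 5.85. The difference of the responses, 1.26, did not pass (adjusted p = 0.31, limma).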

How the results depend on the processing

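Of 388 counts of histone genes past the threshold, recomputed for 28 comparisons, 337 stayed within 1.5 times the reported count. A count of 0 that stayed at 0 is included among the 337, and the direction of change was not part of this check. With the 5 libraries that stood apart left out, a choice made after seeing the data, the Pi response had 1 gene in WT leaf, 3 in KO leaf, 2 in OE leaf and 0 in WT root, OE against WT leaf at 200 µM had 1, and the difference of the OE and WT leaf responses had 0. Median-of-ratios scaling gave 1 in KO against WT leaf at 200 µM, and 23 in KO at 200 µM and 21 in OE at 0 µM for root against leaf. Fitting the compared groups alone gave 0 in KO leaf, 2 in OE leaf and 0 in WT root for Pi. The length correction gave 1 each in KO and OE against WT leaf at 200 µM, in the KO difference in leaf and in the Pi response of WT root, and 22 in OE at 0 µM for root against leaf. Without a level filter WT root had 1. The share of all genes called is not given for most settings of this section. Its counts show how far the reported counts moved and are not read as a result about the histone genes.

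Deviations of same-numbered libraries correlated between -0.37 and 0.72 in leaf (median -0.03) and between -0.35 and 0.22 in root (median -0.05). Those of differently numbered libraries had a median of 0.02 in each organ. By the medians, replicate numbers showed no general pairing, and pairing of some libraries is not excluded. With the replicate number as a block, the Pi response had 0 genes in KO leaf and 1 in WT root, and the OE difference in leaf had 0.

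With 1 library left out, the Pi response ranged from 0 to 5 genes in WT root (5 without WT root replicate 1 at 200 µM), 0 to 1 in KO root and KO leaf, and 0 to 0 in OE leaf, and the OE difference in leaf from 0 to 0. Without that same WT root library KO against WT root at 200 µM had up to 4 genes, OE against WT root 2 and the KO difference in root 3, each with 0 as the lowest. The 3 genes of the KO difference were called up, beside 0.292% of all genes called up and 0.532% called down. The fit without it kept WT root replicate 2 at 200 µM, with its raised short genes. For root against leaf the ranges were 28 to 33 in WT at 200 µM and 31 to 35 at 0 µM, 32 to 35 and 29 to 34 in KO, and 29 to 32 and 31 to 34 in OE. The causes were not tested. The shallowest library holds 2070000 reads, and genes under about 1 FPKM rest on few reads.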
